A study of Mus musculus with 24 samples.

Results

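The 10 genes described here are markers of the cells that build blood vessels and of contractile cells, measured in cultures that are meant to hold neural stem and progenitor cells. They were the rows, in each of 4 deposited tables, whose gene name equalled a listed symbol, and all 10 of the 10 symbols were found among 38924 entries per table. By role they are 4 contractile genes (Acta2, Tagln, Cnn1, Myl9), 2 genes of mural cells (Pdgfrb, Rgs5) and 4 endothelial genes (Flt1, Kdr, Pecam1, Cdh5). The cultures were neurospheres, floating cell aggregates grown from dissociated mouse cerebral cortex or hypothalamus taken at embryonic day 14.5. At passage 3 they received the synthetic glucocorticoid dexamethasone at 100 nM, or ethanol alone as vehicle, for 4 hours. Female and male cultures of both regions with both treatments made 8 groups of 3 libraries, 24 in all, each from total RNA sequenced with a stranded kit. The labels call the replicates biological and give neither the mouse strain nor whether a replicate was an embryo, a litter or a pool, and the p-values therefore reflect variation among these libraries alone.

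Blood vessels are tubes of endothelial cells, which carry the receptors for vascular endothelial growth factor (VEGF) and are held together by junction proteins. Around them sit mural cells, the pericytes and smooth muscle cells, which are recruited by platelet-derived growth factor and contract through smooth muscle actin, myosin and their partner proteins. The contractile genes are classical targets of serum response factor (SRF), which binds a DNA element called the CArG box together with coactivators of the myocardin family. Many endothelial promoters are bound by ETS factors, whose core site reads GGAA. In the brain the vessels grow in from the surrounding mesenchyme and are not made by neural progenitors. Contractile genes are not exclusive to vessels, and several are used by stromal, wounded and cultured cells.

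Promoter sequences from RefSeq (build GRCm38.p6, 250 bases before to 50 bases after the gene start) were found for 6 of the 10 genes. They are shown for the 2 contractile genes with a CArG-like element in this window and for the 2 VEGF receptors, since these 4 genes carry the main contrasts below. In the first pair, capitals mark a CArG box or the same element with 1 other base in its core, searched on both strands.
Acta2 promoter, chr19:34255324-34255623, minus strand: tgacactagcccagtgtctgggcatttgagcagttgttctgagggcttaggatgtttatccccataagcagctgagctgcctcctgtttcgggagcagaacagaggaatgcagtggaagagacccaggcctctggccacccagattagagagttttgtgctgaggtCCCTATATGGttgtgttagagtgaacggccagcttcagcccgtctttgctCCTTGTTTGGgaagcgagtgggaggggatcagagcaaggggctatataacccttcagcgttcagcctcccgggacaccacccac
Myl9 promoter, chr2:156775214-156775513, plus strand: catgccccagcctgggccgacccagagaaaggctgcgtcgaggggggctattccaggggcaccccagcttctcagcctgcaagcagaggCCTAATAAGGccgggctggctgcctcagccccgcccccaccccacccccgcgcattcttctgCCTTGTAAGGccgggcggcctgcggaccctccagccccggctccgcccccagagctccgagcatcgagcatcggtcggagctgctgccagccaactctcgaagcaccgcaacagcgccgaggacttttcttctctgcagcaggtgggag
In the second pair, capitals mark GGAA on either strand.
Flt1 promoter, chr5:147725962-147726261, minus strand: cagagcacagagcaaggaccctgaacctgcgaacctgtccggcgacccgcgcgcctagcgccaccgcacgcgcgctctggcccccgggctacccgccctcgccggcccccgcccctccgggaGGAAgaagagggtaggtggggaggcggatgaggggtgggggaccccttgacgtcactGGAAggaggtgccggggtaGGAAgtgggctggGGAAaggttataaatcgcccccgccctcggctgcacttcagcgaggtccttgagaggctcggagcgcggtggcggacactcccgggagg
Kdr promoter, chr5:75978406-75978705, minus strand: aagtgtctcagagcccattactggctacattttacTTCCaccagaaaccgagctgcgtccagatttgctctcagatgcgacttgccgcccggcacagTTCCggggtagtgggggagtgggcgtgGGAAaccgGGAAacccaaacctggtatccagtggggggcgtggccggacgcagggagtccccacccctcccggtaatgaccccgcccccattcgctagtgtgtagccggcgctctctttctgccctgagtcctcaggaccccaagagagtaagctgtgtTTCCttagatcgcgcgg
The Acta2 window held 2 elements with 1 other base in the core and no full CArG box. Myl9 held 1 full CArG box and 1 element with another base. Of 32851 windows of the same length, 1.63% held a full CArG box and 9.98% held one with up to 1 other base in its core. The Kdr window also held 1 such element, and the Cnn1, Rgs5 and Flt1 windows held none. GGAA occurred 4 times in the Flt1 window and 5 times in the Kdr window, but 96.0% of all windows held it. The letters TATAAA stood once, in the Flt1 window, and were found in 13.6% of all windows. The full palindrome bound by the glucocorticoid receptor (GNACA and TGTNC with any 3 bases between them), present in 0.475% of all windows, was in none of the 6. Such matches describe letters in these windows and say nothing of binding.

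Each library held 16.39 to 20.94 M reads in genes in cortex and 16.04 to 25.49 M in hypothalamus. The share of mt-Rnr2, the large ribosomal RNA of mitochondria, was 1.09% to 2.67% in cortex and 21.3% to 40.0% in hypothalamus, so region and library composition moved together and cannot be told apart. Levels are given as RPM, reads per M of a scaled library size, which is not the plain total of reads. To compare regions, the recovered reads were brought to 1 common scale over the 24 libraries by TMM scaling. The common-scale sizes lay above the reads in genes in every cortex library and below them in every hypothalamus library. In replicate 1 of female vehicle cortex the size was 23.4 M against 18.4 M reads. In replicate 1 of male vehicle hypothalamus it was 14.9 M against 18.8 M reads. The glucocorticoid targets Fkbp5, Tsc22d3, Zbtb16 and Per1 rose with dexamethasone in both regions (4 of 4 in each pooled comparison). In replicate 2 of male hypothalamus the X-inactivation RNA Xist stood at 32.3 RPM with vehicle and 38.1 RPM with dexamethasone, against 0.175 to 0.632 RPM in the other 10 male libraries and 371 to 744 RPM in female libraries. The limma results of the region, pooled and interaction comparisons are therefore also given without them where stated, and the edgeR results and correlations are given with them only.

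The labelled cell type was checked with 8 neural stem and progenitor genes (Nes, Sox2, Pax6, Vim, Fabp7, Slc1a3, Hes5 and Sox9). All 8 had group means of at least 1 RPM, and they summed to between 5843 and 8300 RPM in each library. Vascular genes were a small part of the RNA beside this. Cdh5, the VE-cadherin gene whose protein joins endothelial cells, had 2 reads in all 24 libraries together and none in 22 of them. With no read in a cortex library, 3 reads would have been worth 0.142 to 0.188 RPM as deposited. Of 19 further endothelial genes, 14 had a mean under 1 RPM in vehicle cortex and 16 in vehicle hypothalamus, and Cldn5, a tight junction gene, stood at 0.0218 ± 0.0363 RPM and 0.00827 ± 0.0203 RPM (SD, n = 6). Their summed level was 9.35 to 19.3 RPM per vehicle cortex library and 14.3 to 21.8 RPM per vehicle hypothalamus library, most of it Plvap, Vwf and Egfl7. The smooth muscle myosin gene Myh11 was at 0.380 ± 0.163 RPM in vehicle cortex and 0.288 ± 0.165 RPM in vehicle hypothalamus. Myocd, the myocardin gene, reached 0.0147 ± 0.0227 RPM in cortex and had no read in vehicle hypothalamus. Summed microglial genes reached at most 1.22 RPM and summed erythroid genes at most 1.33 RPM in a library. In such bulk samples, fewer cells of a type and less RNA per cell cannot be told apart.

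The largest contrasts among the 10 genes lay between the regions, and they cut across the cell types that the genes mark. With vehicle, the actin gene Acta2 and the VEGF receptor gene Flt1 stood far higher in hypothalamus than in cortex, while Kdr, the partner receptor of Flt1, did not pass the test. The plot of levels by library shows this split.

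**Figure D1:**
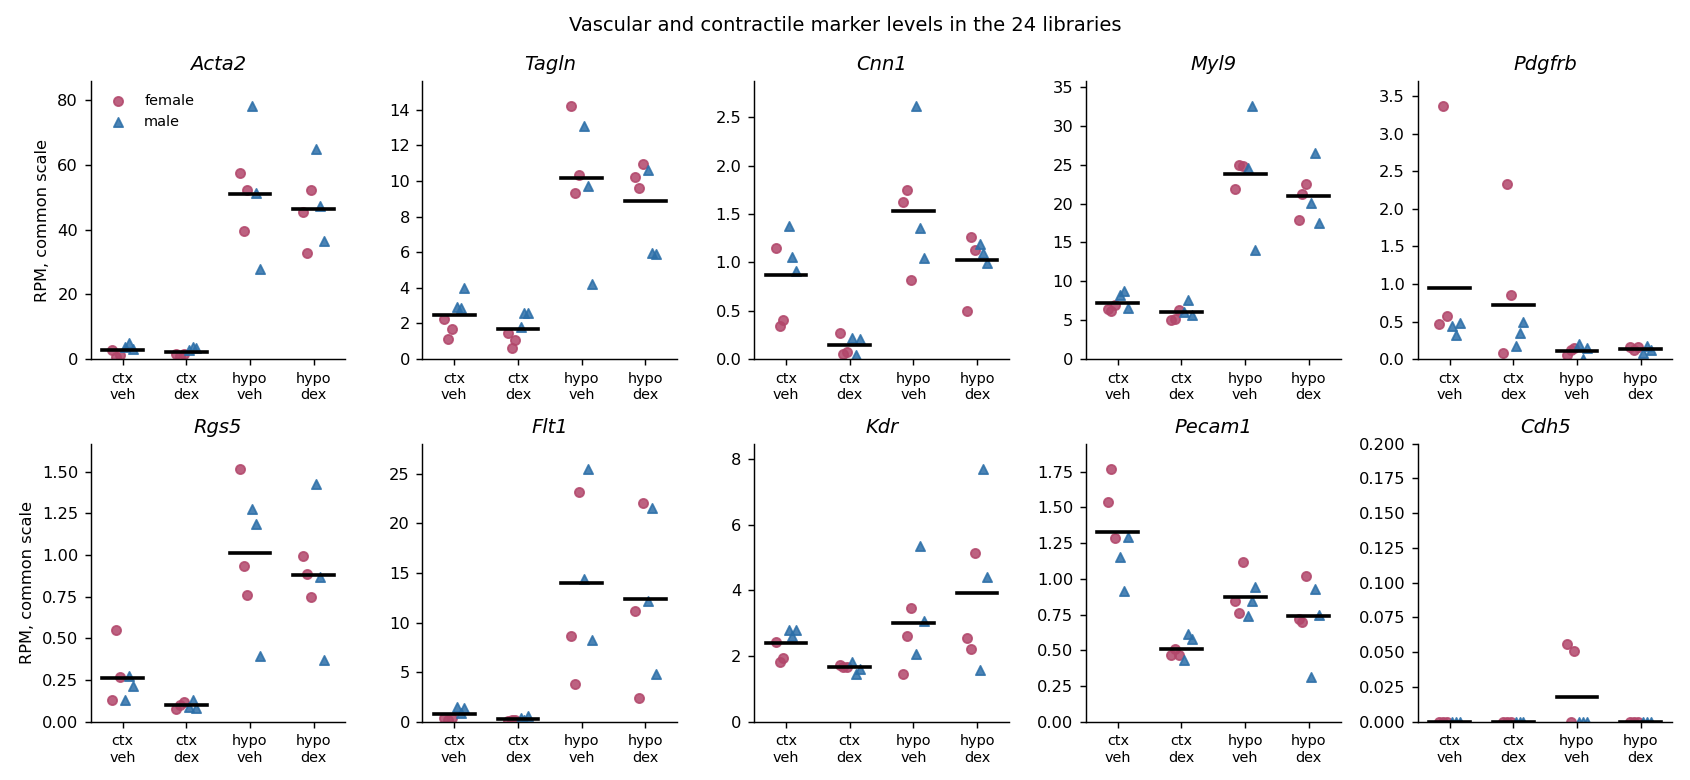
Level of each of the 10 genes in every library, in RPM on a common scale (vertical axes start at 0 and differ between panels), by region (ctx, cortex; hypo, hypothalamus) and treatment (veh, vehicle; dex, dexamethasone). Circles are female and triangles male libraries, and the black line is the mean of 6; the hypothalamus libraries lie above all cortex libraries for Acta2, Tagln, Myl9 and Flt1.

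Acta2, which encodes smooth muscle alpha-actin, was at 2.94, 0.505 and 1.24 RPM in the female and 3.73, 4.82 and 3.15 RPM in the male vehicle libraries of cortex. In hypothalamus the female vehicle libraries held 57.5, 39.6 and 52.2 RPM and the male ones 78.1, 51.3 and 27.8 RPM. Every hypothalamus library was thus above every cortex library, and the lowest of them, male replicate 3, was still several times the highest cortex value. The means were 51.1 ± 17.0 and 2.73 ± 1.60 RPM (SD, n = 6), an 18.7-fold difference, and the limma estimate was 3.87 ± 0.30 log2 units (SE, adjusted p = 6.1e-07).

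Tagln (transgelin, an actin-binding protein of smooth muscle) and Myl9 (a myosin regulatory light chain) followed at smaller size. Tagln was at 2.26, 1.14 and 1.69 RPM in female and 2.93, 2.89 and 4.01 RPM in male vehicle cortex, and at 14.2, 9.33 and 10.3 RPM in female and 13.1, 9.75 and 4.22 RPM in male vehicle hypothalamus. The groups did not overlap, but male hypothalamus replicate 3 came close to the highest cortex library. The means differed 4.08-fold (1.66 ± 0.26 log2 units, adjusted p = 0.000201 by limma). Tagln shares 108 exon bases with Pcsk7 on the other strand and 1241 with the antisense gene Gm48529, and no source used here states whether counting used strand, so reads of these genes may be mixed. Myl9 ranged from 6.23 to 8.76 RPM in vehicle cortex and from 14.1 to 32.5 RPM in vehicle hypothalamus, with means of 7.20 ± 1.05 and 23.8 ± 5.95 RPM. This was a 3.30-fold difference without overlap (1.57 ± 0.16 log2 units, adjusted p = 7e-06 by limma). Cnn1, calponin 1 and the fourth contractile gene, had means of 0.871 ± 0.418 and 1.53 ± 0.636 RPM with overlapping groups, and its difference of 0.43 ± 0.18 log2 units did not pass (adjusted p = 0.0527 by limma). This lay near the threshold and passed with DESeq2 (adjusted p = 0.0445), with its size factors (0.0499) and without 1 of 3 libraries (female cortex replicate 1, female hypothalamus replicate 3 or male hypothalamus replicate 3, adjusted p = 0.0253 to 0.0392).

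The mural genes were low and went opposite ways. Rgs5, a regulator of G protein signalling used as a pericyte marker, had 3 to 13 reads per vehicle cortex library and 8 to 27 per vehicle hypothalamus library, or 0.261 ± 0.154 against 1.01 ± 0.400 RPM. Pdgfrb, the receptor for platelet-derived growth factor B on pericytes, had 7 to 80 reads per vehicle cortex library and 0 to 3 in hypothalamus, or 0.942 ± 1.19 against 0.113 ± 0.0730 RPM. Its cortex mean rested on female replicate 2, at 3.37 RPM, but the other 5 cortex libraries, at 0.321 to 0.578 RPM, were also above all 6 hypothalamus libraries, whose highest was 0.201 RPM. Both genes failed the filter of the limma test (1 RPM in at least 6 of 12 libraries). In the edgeR quasi-likelihood test on recovered reads, for genes with at least 10 reads, Rgs5 was higher by 1.92 log2 units (adjusted p = 0.000977) and Pdgfrb lower by a log2 difference of -2.92 (adjusted p = 0.0031) in hypothalamus.

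Of the endothelial genes, Flt1 (VEGF receptor 1, which binds VEGF-A tightly and also exists as a soluble decoy) set the regions apart. It stood at 0.341, 0.210 and 0.400 RPM in female and 1.46, 0.917 and 1.42 RPM in male vehicle cortex. In vehicle hypothalamus it reached 8.64, 3.85 and 23.2 RPM in females and 14.4, 25.5 and 8.28 RPM in males. The groups were apart, and the hypothalamus libraries also spread widely among themselves in both sexes. The means of 14.0 ± 8.72 and 0.793 ± 0.559 RPM differed 17.6-fold (2.89 ± 0.34 log2 units, adjusted p = 1.7e-05 by limma). Only 2 of the 6 vehicle cortex libraries were at 1 RPM or more, so Flt1 entered this test mainly through the hypothalamus libraries, but it was called just the same by edgeR with a filter on total reads (4.27 log2 units, adjusted p = 1e-05).

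Kdr, VEGF receptor 2 and the main signalling receptor for VEGF-A, did not follow Flt1. It ranged from 1.81 to 2.81 RPM in vehicle cortex and from 1.46 to 5.35 RPM in vehicle hypothalamus, with overlap and means of 2.40 ± 0.427 and 3.01 ± 1.35 RPM (0.18 ± 0.18 log2 units, adjusted p = 0.399 by limma, and 0.05, adjusted p = 0.788, without male hypothalamus replicate 2, which held the highest value). Pecam1, the CD31 adhesion molecule of endothelial junctions, was lower in hypothalamus, at 0.738 to 1.12 RPM against 0.917 to 1.77 RPM in cortex. The groups overlapped, the means were 0.874 ± 0.140 and 1.33 ± 0.296 RPM, and the limma estimate was -0.31 ± 0.09 log2 units (adjusted p = 0.0145). Pecam1 passed the filter with 5 cortex libraries and 1 hypothalamus library at 1 RPM, so it had been selected mainly through the region where it was higher. These were the 6 libraries needed, so leaving out any 1 of them removed the gene from the test, and the call was kept in the other 6 of 12 fits. In females alone it did not pass (-0.41, adjusted p = 0.0834).

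In all, 7 of the 10 genes were tested by limma in this comparison, with 4 higher and 1 lower in hypothalamus. The background is large: 56.3% of the 12972 genes tested were called between regions, 28.3% higher and 28.0% lower, and in 32.4% the groups did not overlap (16.0% with hypothalamus higher and 16.4% with it lower). A call between regions is therefore common, and the sizes say more than the count. By edgeR, whose filter uses total reads, the median difference was 1.73 log2 units over the 9 tested genes and 0.01 over all genes tested. Of these 9 genes, 5 were higher and 2 lower, against 25.7% and 24.7% of 20513 genes and 50.4% in either direction. Within each sex the 4 higher genes were called too, with log2 differences in females and males of 4.40 and 3.34 for Acta2, 2.99 and 2.79 for Flt1, 2.19 and 1.12 for Tagln and 1.72 and 1.41 for Myl9. Without male hypothalamus replicate 2 they were 3.91, 2.73, 1.67 and 1.47, all still called, as was Pecam1 (-0.32), and scaling to reads outside the ribosomal-RNA-like entries gave 3.96, 3.05, 1.70 and 1.57.

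**Figure D2:**
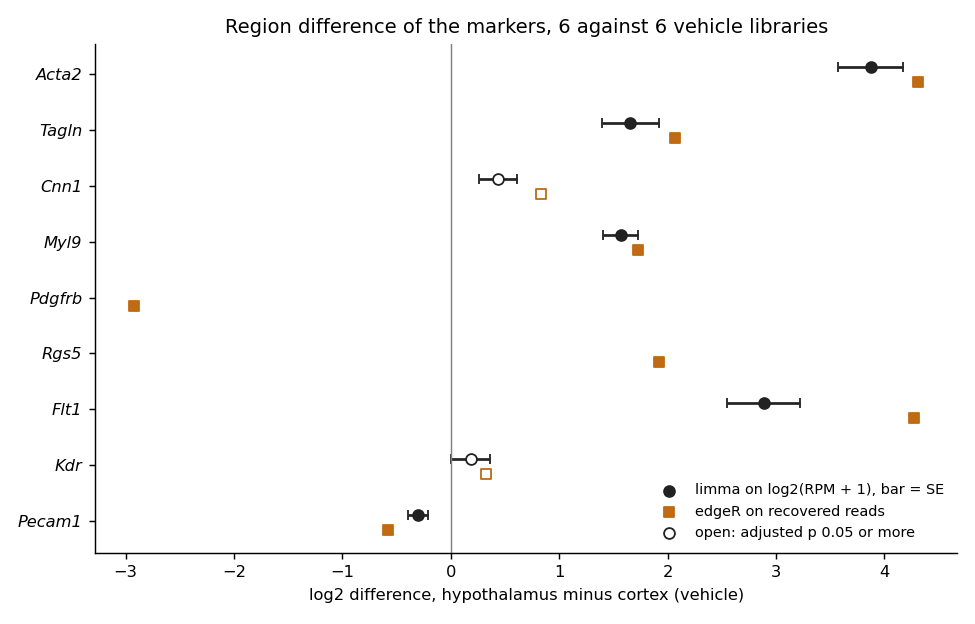
Difference of each gene between vehicle hypothalamus and vehicle cortex in log2 units, 6 libraries against 6. Circles with bars are limma estimates with their SE, squares are edgeR estimates, and filled symbols passed an adjusted p of 0.05. Acta2 and Flt1 lie farthest right, Kdr near 0, and Pdgfrb and Rgs5 have an edgeR estimate only.

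Levels of different genes can be compared only per length, taken here as all annotated exons of a gene merged over its transcripts. This length, 13504 bases for Flt1, can exceed that of the transcripts present. Per kb of annotated exon, the order in vehicle hypothalamus began with Acta2 at 23.3 ± 7.75 and Myl9 at 20.5 ± 5.12 RPM per kb, which did not differ beyond their spread. Tagln followed at 5.10 ± 1.76, Flt1 at 1.03 ± 0.646, Cnn1 at 0.560 ± 0.232, Kdr at 0.333 ± 0.150, Rgs5 at 0.222 ± 0.0879, Pecam1 at 0.140 ± 0.0225, Pdgfrb at 0.0205 ± 0.0133 and Cdh5 at 0.00424 ± 0.00658 RPM per kb. From Flt1 down to Pecam1 each neighbour lay within 1 SD of the next. In vehicle cortex Myl9 led at 6.20 ± 0.905 RPM per kb, ahead of Tagln at 1.25 ± 0.513 and Acta2 at 1.24 ± 0.726, which could not be ordered. Cnn1 at 0.318 ± 0.153 and Kdr at 0.266 ± 0.0473 came next, also within their spread, then Pecam1 at 0.213 ± 0.0476 and Pdgfrb at 0.172 ± 0.217. Flt1 at 0.0587 ± 0.0414 and Rgs5 at 0.0574 ± 0.0338 RPM per kb were level at the end, before Cdh5 with no read. Acta2 and Flt1 thus stood higher in the order in hypothalamus than in cortex.

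The wider contractile and mural programmes did not shift as a block. Of 17 other contractile and smooth muscle genes, 12 were tested, with 4 higher and 3 lower in vehicle hypothalamus and a median of -0.04 log2 units. These shares were near those of all genes tested, 28.3% higher and 28.0% lower. The same 2 shares are the background for the other lists of this paragraph. Higher were Mylk, the myosin light chain kinase gene (16.0 ± 7.37 against 3.48 ± 1.62 RPM), Cald1 (caldesmon), Tpm1 (a tropomyosin) and Mkl2, a coactivator of SRF. Lower were Srf itself (26.9 ± 5.67 against 51.4 ± 7.76 RPM, -0.93 ± 0.13 log2 units, adjusted p = 9.7e-05 by limma), Csrp1 and Tpm2. Of 12 other mural genes, 3 were tested and Notch3 and Cspg4 were lower, at -0.52 and -0.45 log2 units; both are also expressed by neural progenitors and glial precursors. Of the 19 other endothelial genes, 3 were tested and Plvap, which marks fenestrated endothelium, was higher (9.24 ± 2.43 against 4.82 ± 1.97 RPM, adjusted p = 0.00777 by limma). Of 10 fibroblast and meningeal genes, 4 were tested, with Fn1 (fibronectin, 1.22 log2 units) and Fbln2 (0.61) higher and Col1a1 (-0.72) lower. Col1a1 averaged 0.896 RPM in hypothalamus, and the cortex libraries, at 1.407 RPM or more, met the filter alone. Most RNA of the fibroblast and meningeal genes was Fbln2, at 433.5 ± 131.6 RPM in vehicle cortex and 635.2 ± 96.0 RPM in vehicle hypothalamus. Their summed levels were 228 to 563 and 525 to 767 RPM per library. The fibroblast genes Col1a2, Col3a1, Dcn, Lum and Postn had means of 0 to 0.224 RPM in both regions. The part of these genes in the difference of Acta2 was not tested.

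The ligands of the VEGF receptors differed between regions as well. Vegfa, which encodes the main ligand of both receptors, was at 70.6 ± 31.7 RPM in vehicle hypothalamus and 300.7 ± 50.7 RPM in vehicle cortex (-2.18 ± 0.25 log2 units, adjusted p = 1.7e-05 by limma), opposite in sign to Flt1. The co-receptor gene Nrp1 was higher in hypothalamus (44.2 ± 9.73 against 19.9 ± 3.25 RPM) and its relative Nrp2 lower (8.14 ± 1.55 against 16.5 ± 3.34 RPM). Vegfc was also higher, and Vegfb and Tgfb3 lower. Of the 12 ligands and co-receptors, 10 were tested, with 2 higher and 5 lower, against 28.3% and 28.0% of all genes.

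With dexamethasone several of these genes fell in cortex. In male cortex Cnn1, Flt1, Kdr and Pecam1 were called, and in female cortex Pecam1 alone; whether the sexes differed was not tested. Values below are as deposited, in RPM scaled within each table.

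Cnn1 stood at 1.70, 1.30 and 1.11 RPM with vehicle and 0.268, 0.0538 and 0.256 RPM with dexamethasone in male cortex. All 3 treated libraries were below all vehicle libraries, on 11 reads in sum against 75. The limma change was -0.99 ± 0.15 log2 units (adjusted p = 5.6e-04). In female cortex it stood at 1.40, 0.430 and 0.507 RPM against 0.331, 0.0627 and 0.0962 RPM, again without overlap, but it failed the filter there. By edgeR on recovered reads the change was -2.79 in males (adjusted p = 2.9e-04) and -2.15 in females (adjusted p = 0.184). In the authors' deposited table the adjusted p of Cnn1 in female cortex was 0.0313, with a log2 fold change of -2.16. The same table gave Pecam1 an adjusted p of 8.5e-04 in female cortex and 0.124 in male cortex, so in males the authors' deposited table did not call it.

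The other contractile genes changed less. Tagln went from 3.62, 3.55 and 4.92 RPM to 2.20, 3.18 and 3.22 RPM in male cortex and from 2.75, 1.45 and 2.14 RPM to 1.80, 0.753 and 1.30 RPM in female cortex. The male groups did not overlap and the female groups did, and neither change passed (-0.38, adjusted p = 0.0656 and -0.45, adjusted p = 0.364 by limma). With the replicate number as a block in female cortex, where same-numbered libraries deviated together, Tagln passed (-0.45, adjusted p = 0.0314), in a fit that called 38.1% of genes and 18.2% lower. Myl9 stood at 8.09 to 10.8 RPM with vehicle and 7.06 to 9.42 RPM with dexamethasone in male cortex, and at 7.79 to 8.84 against 6.14 to 7.84 RPM in female cortex. These changes of -0.25 and -0.24 log2 units did not pass (adjusted p = 0.149 and 0.416 by limma). Acta2 overlapped in both sexes, with changes of -0.21 ± 0.15 in males and -0.01 ± 0.38 log2 units in females.

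Among the endothelial genes of male cortex, Flt1 stood at 1.81, 1.13 and 1.74 RPM with vehicle and 0.482, 0.162 and 0.716 RPM with dexamethasone. The groups were apart and the change was -0.82 ± 0.18 log2 units (adjusted p = 0.00412 by limma). Kdr stood at 3.45, 3.21 and 3.44 RPM with vehicle and 2.25, 1.78 and 2.00 RPM with dexamethasone, also apart (-0.54 ± 0.12, adjusted p = 0.00364 by limma). Pecam1 stood at 1.43, 1.13 and 1.59 RPM with vehicle and 0.535, 0.754 and 0.716 RPM with dexamethasone, a change of -0.51 ± 0.14 log2 units (adjusted p = 0.0122 by limma). All 3 genes were also lower in the edgeR fit, at -1.77, -0.76 and -1.05 log2 units with adjusted p of 0.00373, 0.00517 and 0.0103. Cnn1, Flt1 and Pecam1 passed the limma filter through the 3 vehicle libraries alone and so had to differ to be tested, whereas the edgeR filter uses total reads. Kdr was at 1 RPM or more in every cortex library.

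In female cortex Pecam1 stood at 1.87, 2.26 and 1.63 RPM with vehicle and 0.567, 0.627 and 0.577 RPM with dexamethasone. The treated libraries lay close together and far below the vehicle libraries, with 10 to 12 reads each against 29 to 42, so here too the gene passed the limma filter through the vehicle libraries. The change was -0.87 ± 0.15 log2 units (adjusted p = 0.0362 by limma, 0.0349 by edgeR with -1.68). Leaving out any 1 of the 6 libraries kept it between -0.94 and -0.79 but moved the adjusted p to between 0.0716 and 0.177; blocking on the replicate number gave 0.00273. Kdr, at 2.96, 2.31 and 2.48 against 2.08, 2.07 and 2.07 RPM, was lower without overlap, yet did not pass (-0.22 ± 0.14, adjusted p = 0.448 by limma). Flt1 had 22 reads in sum with vehicle and 11 with dexamethasone there and was below the filter. The 2 mural genes were not called in either sex (Pdgfrb in female cortex -0.24 ± 0.63, adjusted p = 0.89 by limma). Rgs5 had at most 3 reads in any treated cortex library, and Pdgfrb again stood out in female replicate 2, at 4.30 RPM with vehicle and 2.89 RPM with dexamethasone.

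**Figure D3:**
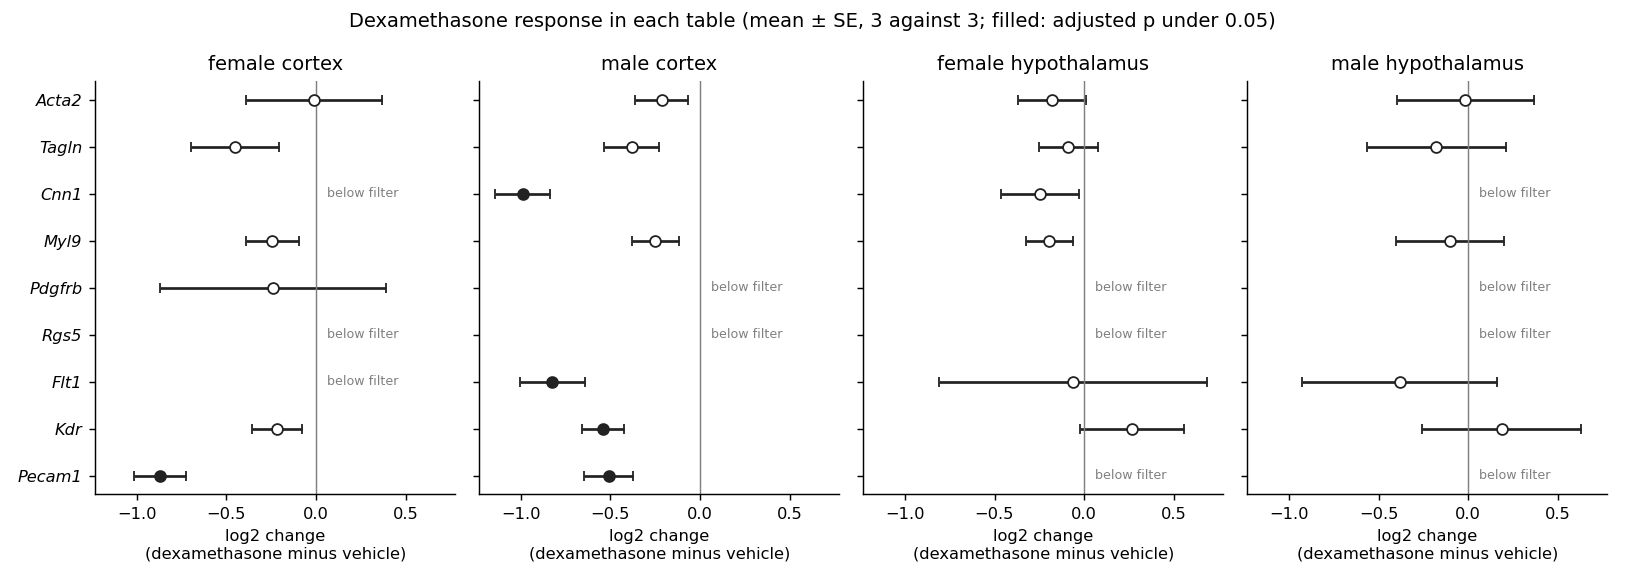
Change with dexamethasone in each of the 4 tables in log2 units on the log2(RPM + 1) scale, estimate and SE, 3 libraries against 3; filled circles passed an adjusted p of 0.05 and genes under the filter are marked. Filled circles appear in the 2 cortex panels only, 1 in female and 4 in male cortex. Of the genes shown, the difference between regions passed its own limma test without a block for Pecam1 alone. With the replicate number as a block it also passed for Kdr.

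Counted over the lists, 1 of 6 tested genes was lower in female cortex, where 4.42% of 13314 genes were called and 3.02% were lower; edgeR called the same 1 of 9, against 2.42% of genes and 1.69% lower. In male cortex 4 of 7 were lower, where 47.6% of 13205 genes were called and 20.9% were lower, and edgeR called these 4 of 9, against 37.9% and 19.4% lower. Groups did not overlap, with dexamethasone lower, for 14.7% of genes in female and 24.5% in male cortex. By edgeR, whose filter uses total reads, the 9 tested genes had medians of -0.69 log2 units in female and -0.76 in male cortex, against -0.01 over all genes tested in each. Pooling the sexes on the common scale gave 12 cortex libraries, where 4 genes passed the filter and 2 were lower, Kdr (-0.35 ± 0.09, adjusted p = 0.00733) and Tagln (-0.38 ± 0.14, adjusted p = 0.0458, by limma). The background was 39.4% of 12790 genes called and 17.3% lower. Tagln lost this call without female cortex replicate 3 or without male cortex replicate 1, 2 or 3 (adjusted p = 0.0713 to 0.112), and by edgeR (adjusted p = 0.0706). With edgeR on all genes of at least 10 reads, 5 of 9 genes were lower, against 30.3% of 19708 genes called and 16.0% lower. These were Cnn1 (-2.49, adjusted p = 0.00109), Flt1 (-1.50, adjusted p = 0.00536), Pecam1 (-1.36, adjusted p = 0.000174), Rgs5 (-1.34, adjusted p = 0.0228) and Kdr (-0.52, adjusted p = 0.0138). Cnn1 and Pecam1 did not overlap between the 6 treated and 6 vehicle libraries of cortex on the common scale, which was so for 9.02% of genes in this direction.

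In hypothalamus none of the 10 genes was called with dexamethasone in either sex or in both together. Of 6 genes tested in female, 5 in male and 6 in pooled hypothalamus, 0 passed by limma, and 0 of 9 passed by edgeR in each. The background was low too, at 0.841% of 12491 genes in females, 0.226% of 12403 in males and 4.13% of 12758 pooled, and 1113, 960 and 2561 genes had an unadjusted p under 0.05 by limma. By edgeR it was 0.616%, 0.185% and 2.53%. Acta2 moved by -0.10 ± 0.23, Tagln by -0.14 ± 0.22, Myl9 by -0.15 ± 0.17, Cnn1 by -0.30 ± 0.17, Flt1 by -0.23 ± 0.52 and Kdr by 0.24 ± 0.29 log2 units in the pooled fit (SE). Without male hypothalamus replicate 2 these values were -0.10, -0.04, -0.12, -0.32, -0.23 and 0.19.

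Vehicle and treated libraries that shared a replicate number had similar levels, while the numbers differed widely. On the common scale, Flt1 in the 3 female vehicle libraries was 8.64, 3.85 and 23.2 RPM, and with dexamethasone 11.2, 2.41 and 22.0 RPM, in order of replicate number. The male libraries held 14.4, 25.5 and 8.28 RPM with vehicle and 12.2, 21.5 and 4.77 RPM with dexamethasone. The order of the 3 replicate numbers was the same with and without dexamethasone in each sex, and 5 of 6 pairs were lower with dexamethasone. With the replicate number as a block in male hypothalamus, Flt1 was the 1 gene called (-0.38 ± 0.11, adjusted p = 0.0394 by limma), where 13.1% of genes were called in that fit and 8.01% were lower. A blocked fit without male replicate 2 was not made; the fit without a block gave -0.38 (adjusted p = 0.888) with it and -0.44 (adjusted p = 1.00) without it. In females with the block Flt1 was not called (-0.06, adjusted p = 0.816), where 7.14% of genes were. Pooled over the sexes the blocked fit gave -0.23 (adjusted p = 0.148) and 3769 genes called (29.5%) in place of 527, with none of the 10 among them. Kdr was higher with dexamethasone in 4 of 6 pairs and Acta2 lower in 5 of 6.

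**Figure D4:**
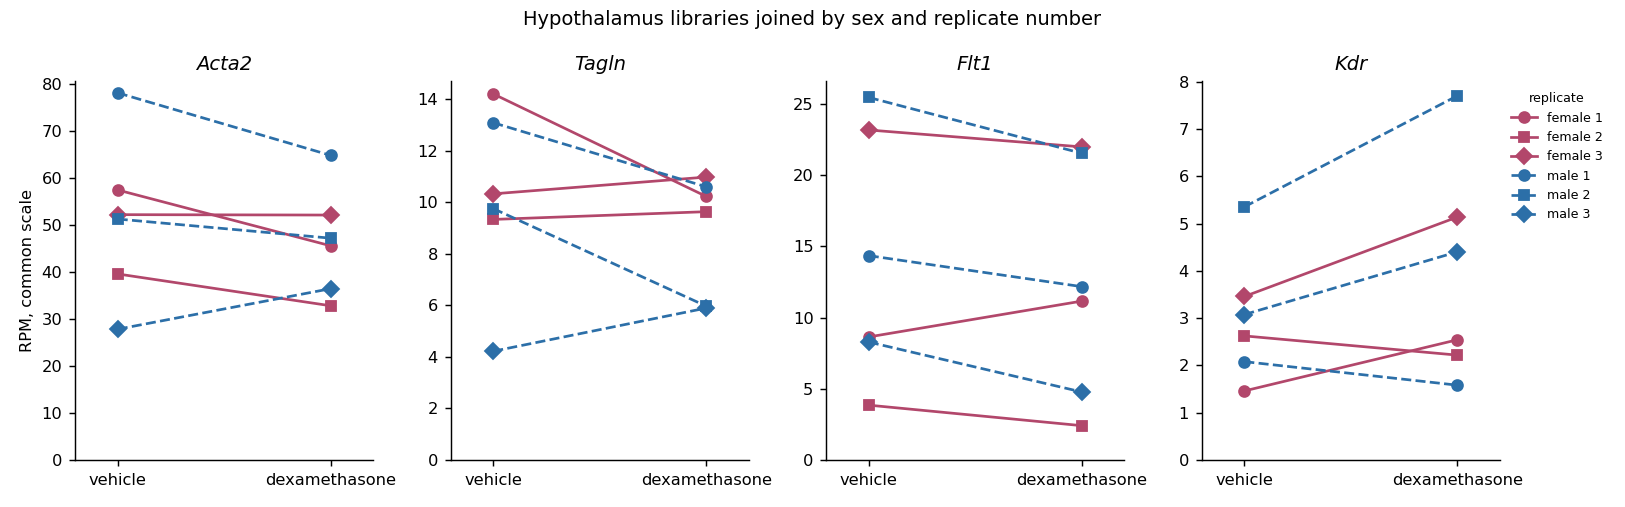
Levels of Acta2, Tagln, Flt1 and Kdr in the 12 hypothalamus libraries, in RPM on a common scale, with lines joining vehicle and dexamethasone libraries of the same sex and replicate number. Solid lines are female and dashed lines male; for Flt1 the lines keep their order within each sex, from 25.5 RPM at the top to 3.85 RPM at the bottom with vehicle.

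Whether the response differed between regions was tested as an interaction over all 24 libraries. Pecam1 alone was called among 7 genes tested by limma, at 0.50 ± 0.13 log2 units (hypothalamus change minus cortex change, adjusted p = 0.0144), where 15.5% of 13447 genes were called and 7.53% were higher. Its level went from 1.33 ± 0.296 to 0.510 ± 0.0704 RPM in cortex and from 0.874 ± 0.140 to 0.736 ± 0.242 RPM in hypothalamus (SD, n = 6). It passed the filter with 7 of 24 libraries at 1 RPM, 5 of them vehicle cortex libraries, where it is highest, and none of them treated cortex libraries. Without female hypothalamus replicate 3 the gene no longer passed the filter and had no limma test, and without male hypothalamus replicate 2 the value was 0.46 (adjusted p = 0.0347). By edgeR with at least 10 reads, Cnn1 (1.92, adjusted p = 0.0282) and Pecam1 (1.13, adjusted p = 0.02) were called among 9 genes, against 8.3% of genes called and 4.63% higher. For Kdr the interaction was 0.59 ± 0.32 (adjusted p = 0.243 by limma), which did not pass. With the replicate number as a block Kdr passed (0.59 ± 0.15, adjusted p = 0.00624 by limma). That fit called 5449 of 13447 genes, 2311 of them higher, so the call of Kdr depends on the block.

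Some genes around the markers were called as well. Vegfa went from 300.7 ± 50.7 to 134.7 ± 56.3 RPM with dexamethasone in cortex (-1.26 ± 0.28 log2 units, adjusted p = 0.00412 by limma) and was at 70.6 ± 31.7 and 57.1 ± 30.6 RPM in hypothalamus, where it was not called. Pgf, a ligand of Flt1 that does not bind Kdr, rose in both regions, from 2.46 ± 0.781 to 6.17 ± 2.77 RPM in cortex (1.00 ± 0.18, adjusted p = 9.5e-04) and from 1.35 ± 0.860 to 4.97 ± 2.75 RPM in hypothalamus (1.29 ± 0.30, adjusted p = 0.0317, by limma). Tgfb3 fell in both, by 0.93 and 0.72 log2 units. Nrp1 fell in hypothalamus from 44.2 ± 9.73 to 26.9 ± 5.29 RPM (-0.69 ± 0.15, adjusted p = 0.0226 by limma) and Vegfb and Vegfc fell in cortex. Vegfc averaged 0.865 RPM with dexamethasone there, and the vehicle libraries, at 1.155 to 1.876 RPM, met the filter alone. In cortex 4 of the 10 tested ligands and co-receptors fell and 1 rose, where 39.4% of all genes were called and 17.3% were lower. In hypothalamus 2 fell and 1 rose, where 4.13% of all genes were called. Among the 12 other contractile genes tested in cortex, 2 fell, a share near the 17.3% of all genes that were lower there. Srf went from 51.4 ± 7.76 to 23.8 ± 3.43 RPM (-1.08 ± 0.11, adjusted p = 2.3e-05 by limma) and its coactivator gene Mkl1 from 14.3 ± 2.62 to 9.63 ± 1.02 RPM (-0.51 ± 0.11). In hypothalamus none of 12 passed, and the response of Srf differed between regions (0.79 ± 0.20, adjusted p = 0.00812 by limma). Of the other mural genes, Notch3 fell in cortex (-0.53 ± 0.10) and Cspg4 rose in hypothalamus (0.78 ± 0.12). None of the 3 other endothelial genes tested passed in the pooled comparison of either region, by limma. In male cortex alone 6 were tested and 3 fell, where 47.6% of all genes were called and 20.9% were lower. These 3 were the TGF-beta co-receptor gene Eng (-0.99 ± 0.18), Plvap (-0.62 ± 0.13) and the junction gene Esam (-0.49 ± 0.14). Eng and Esam averaged 0.231 and 0.720 RPM as deposited with dexamethasone. Both passed the filter through the vehicle libraries alone and so had to differ to be tested. In female cortex 4 were tested and none passed, where 4.42% of all genes were called. Fibroblast and meningeal genes moved as well, with Fn1 and Foxc1 lower in cortex (-0.93 and -1.10) and Fn1 lower in hypothalamus (-0.77), and their part in the changes of the 10 genes was not tested.

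**Figure D5:**
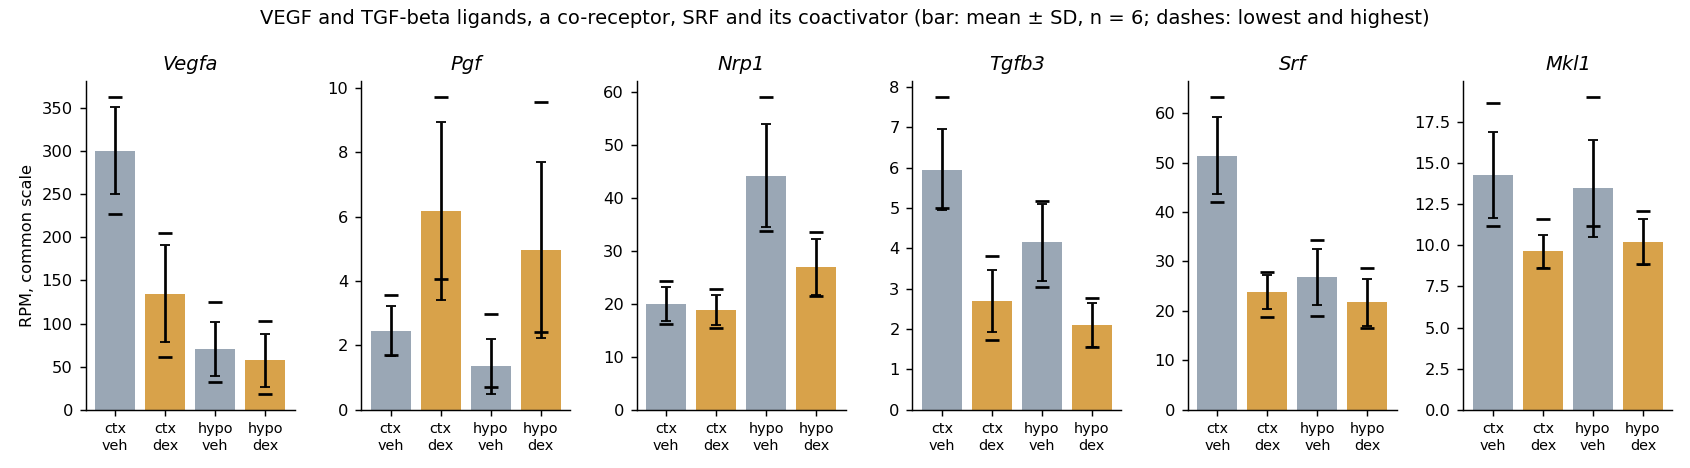
Levels of 3 ligand genes (Vegfa, Pgf, Tgfb3), the co-receptor gene Nrp1, Srf and its coactivator gene Mkl1, in RPM on a common scale (bars from 0, mean ± SD, n = 6; dashes mark the lowest and highest library), by region and treatment. With vehicle, Vegfa was at 300.7 RPM in cortex and 70.6 RPM in hypothalamus, and Pgf was higher with dexamethasone in both regions.

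The 10 genes did not vary as 1 block from library to library. Over the 12 cortex libraries, which differ in sex and treatment, Pearson correlations of log2(RPM + 1) were 0.96 for Cnn1 with Kdr, 0.85 for Flt1 with Kdr and 0.82 for Acta2 with Tagln. Over the 12 hypothalamus libraries Tagln with Rgs5 was at 0.81, Acta2 with Rgs5 at 0.76 and Acta2 with Tagln at 0.75, while Cnn1 with Kdr was at -0.29. Among 12360 genes with a mean of at least 1 RPM in hypothalamus, those most like Acta2 over these 12 libraries were Pde2a (0.94), Scara3 (0.92), Col4a6 (0.92), Col11a1 (0.89) and Fam177a (0.88). Those most like Flt1 were Zfp385b (0.92), Dock5 (0.91), Lpo (0.89), Zfp365 (0.89) and Aff2 (0.89). Col4a6, a basement membrane collagen gene, ranged from 4.88 to 42.1 RPM in hypothalamus and from 2.56 to 9.40 RPM in cortex, and Dock5 from 0.875 to 5.14 and from 0.222 to 1.72 RPM. Pde2a was not higher in hypothalamus, with a median of 20.0 RPM (12.65 to 35.95) against 22.53 RPM (18.67 to 29.02) in cortex. All the other genes named had the higher median in hypothalamus. The points share library depth and replicate number, and these correlations are a description of 12 libraries.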

How the data were processed

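The authors deposited 4 tables, 1 for each sex and region, with a normalized signal (RPM) per gene and library, together with fold ratios, log2 fold changes and p-values per the file headers, which name edgeR. TopHat2 (2.0.13 and 2.0.9), HTSeq and GRCm38 are named in the submitters' processing notes; the annotation and strand setting are not given in the sources used here. The deposited signal values were whole multiples of 1 read (100% within 0.01 read), so reads were recovered; 4 entries with shared names were dropped. No per-sample column was unused (0).

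Within a table, limma 3.58.1 (R 4.3.3, trend) was run on log2(deposited value + 1) keeping genes with 1 RPM in 3 or more of the 6 libraries. Pooled, region and interaction fits used TMM scaling (edgeR 4.0.16) over 24 libraries and at least 6 libraries at 1 RPM, with sex as a covariate. P-values were adjusted over all genes by Benjamini-Hochberg, with a threshold of 0.05. This log2 scale understates changes of low genes, so the edgeR quasi-likelihood test on reads, for genes with at least 10 reads, was added after seeing the data; DESeq2 1.42.0 was another alternative. The fits were tested on simulated data. Same-numbered libraries deviated together in female cortex (correlations 0.494 to 0.872), female hypothalamus (0.608 to 0.752) and male hypothalamus (0.655 to 0.765), found from the data and not the labels. Errors are SDs of levels and SEs of changes. Gene positions came from GENCODE on GRCm38 and sequences from RefSeq. All 10 genes are named; of the other lists, up to 4 genes per direction and comparison with the smallest adjusted p are named, and genes at 0 or leading a list were named after their values were seen. Members and lists were chosen with earlier results of these data known.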

Additional observations from a re-analysis of the deposited data

Results flagged for a closer look

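The response of Pecam1 to dexamethasone differed between the regions by 0.50 log2 units (hypothalamus change minus cortex change, SE 0.13, adjusted p = 0.0144 by limma over 24 libraries). In cortex all 6 treated libraries, at 0.432 to 0.612 RPM on the common scale, were below all 6 vehicle libraries, at 0.917 to 1.77 RPM. In hypothalamus the treated libraries spanned 0.316 to 1.02 RPM and the vehicle libraries 0.738 to 1.12 RPM. The libraries held 4 to 42 reads of the gene, and it passed the filter of this test with 7 of 24 libraries at 1 RPM, 5 of them vehicle cortex libraries, so it was selected mainly through the group where it is highest. The edgeR test, which filters on total reads, gave 1.13 log2 units (adjusted p = 0.02).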

How the results depend on the processing

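The 4 region calls of Acta2, Flt1, Tagln and Myl9 kept their direction and call under every alternative run, with females alone calling 3776 genes in place of 7301. Blocking on the replicate number raised the count of genes called to 5068 in female cortex, 892 in female hypothalamus and 1624 in male hypothalamus. It gave 7905 in pooled cortex, 3769 in pooled hypothalamus and 5449 of 13447 for the interaction. Of the 10 genes it called 2 of 6 tested in female cortex and 1 of 5 in male hypothalamus. For the interaction it called 2 of 7 tested, where Kdr was gained (0.59, adjusted p = 0.00624 by limma). For the region it also gained Cnn1 (0.43, adjusted p = 0.0253 by limma). That block joined cortex and hypothalamus libraries of the same sex and number, and whether these deviated together was not checked. In male cortex the correlations of same-numbered libraries were 0.362, 0.0208 and 0.391, all lower than in the other tables. There the block gained Tagln (-0.38, adjusted p = 0.0209 by limma) and Myl9 (-0.25, adjusted p = 0.0493 by limma). The share of all genes called after adjustment is not given for that fit, so no count of the 10 genes is set against it. In it 7613 of 13205 genes had an unadjusted p under 0.05, and without the block 47.6% were called. A fit by edgeR on genes of at least 10 reads with the replicate block was added after seeing the data. In cortex it called 9158 of 19708 genes, 4438 of them lower, and 7 of the 9 members tested, all lower. In hypothalamus it called 3669 of 19818 genes and 0 of 9 members. For the interaction it called 5238 of 22055 genes, 2367 of them higher. There 4 of 9 members were called, all higher: Cnn1, Flt1, Kdr (0.90, adjusted p = 0.00187) and Pecam1. DESeq2 called 1732 genes in female cortex, 291 in female, 242 in male and 975 in pooled hypothalamus.

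Of the 10 genes, 1 of 4 tested was called in pooled cortex with a pseudocount of 0.25 or by edgeR. With no filter 4 of 9 were called, scaled outside ribosomal-RNA-like entries 4 of 5, and by edgeR with at least 10 reads 5 of 9. The last fit called 30.3% of 19708 genes, and the main fit 39.4% of 12790. For the interaction 2 of 7 were called by edgeR or DESeq2, and 2 of 9 by edgeR with at least 10 reads. The last fit called 8.3% of 22055 genes, and the main fit 15.5% of 13447. For the other settings the share of all genes is not given here, so their counts cannot be set against it. Uncalled estimates near 0 changed sign: Acta2 in female cortex (0.0495 with a pseudocount of 0.25, 0.00086 with DESeq2 size factors), Flt1 in female hypothalamus (0.00073 by edgeR, 0.00077 with at least 10 reads) and the Acta2 interaction (-0.0042 with a pseudocount of 0.25).

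Leaving out 1 library or replicate gave 56 to 364 genes called in female cortex (0 to 0 of the 10), 31 to 70 in female, 0 to 18 in male and 306 to 448 in pooled hypothalamus, 1 to 2 of the 10 in pooled cortex and 0 to 1 for the interaction. Estimates that changed sign ranged from -0.37 to 0.37 (Acta2) and -0.70 to 0.32 (Pdgfrb) in female cortex, -0.65 to 0.66 (Flt1), -0.0014 to 0.44 (Kdr) and -0.20 to 0.072 (Tagln) in female hypothalamus, -0.41 to 0.33 (Acta2), -0.82 to 0.12 (Flt1), -0.20 to 0.63 (Kdr), -0.43 to 0.16 (Myl9) and -0.59 to 0.12 (Tagln) in male hypothalamus, -0.22 to 0.0099 (Acta2) in pooled cortex, and -0.11 to 0.12 (Acta2) and -0.0087 to 0.11 (Myl9) for the interaction. The cause of these changes was not tested. Counts under about 10 reads limit Cdh5, Pdgfrb, Rgs5 and, with dexamethasone in cortex, Cnn1 and Flt1.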

Other observations

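Within vehicle cortex, all 3 male libraries were above all 3 female libraries for Acta2 (3.15 to 4.82 against 0.505 to 2.94 RPM on the common scale), Tagln (2.89 to 4.01 against 1.14 to 2.26 RPM), Flt1 (0.917 to 1.46 against 0.210 to 0.400 RPM) and Kdr (2.61 to 2.81 against 1.81 to 2.43 RPM). This was not tested, and 10.6% of 12972 genes were apart in this direction and 9.24% in the other. Pecam1 was higher in females on average, with overlap (1.29 to 1.77 against 0.917 to 1.29 RPM), and Myl9 (6.60 to 8.76 against 6.23 to 6.98 RPM) and Cnn1 (0.906 to 1.37 against 0.337 to 1.15 RPM) overlapped between the sexes. In vehicle hypothalamus the sexes overlapped for Acta2, Tagln, Flt1 and Kdr.

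Pdgfrb had 80 reads with vehicle and 46 with dexamethasone in replicate 2 of female cortex, against 2 to 22 reads in the other 10 cortex libraries. In the same vehicle library Acta2 had 12 reads, the fewest of any cortex library.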
